A study of Mus musculus with 6 samples.

Results

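The splicing factors described here are the genes on the array whose symbol begins with Srsf, Hnrnp, Sf3a, Sf3b, Snrp, U2af or Prpf, or with Rbm followed by a digit, together with Tra2b and Sfpq. They were taken by name, from probe sets that the platform annotation gives a single gene symbol. This name rule was set with earlier results of these data known. The members came to 74 genes of 7163, read by 168 of 11778 probe sets. A probe set is a group of short probes on an Affymetrix array whose signals are joined into a single value for the transcripts it targets. Tests were run where the signal averaged 100 or more over the 6 arrays, which left 154 probe sets of 73 genes. By class, 10 genes were SR proteins (Srsf genes and Tra2b), 19 were hnRNP proteins and Sfpq, 12 were factors of the U2 particle and the 3' splice site (Sf3a, Sf3b and U2af), 7 were snRNP polypeptides (Snrp), 8 were Prp factors (Prpf) and 18 were Rbm proteins.

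The samples were total RNA from whole mouse liver on 6 arrays, 1 per sample. Of these, 3 came from mice lacking Atp7b, the copper pump whose loss causes Wilson disease (KO903, KO904 and KO905), and 3 from wild-type mice (WT4, WT5 and WT6). The series title places the comparison early in copper accumulation. The labels refer to an earlier published description of the knockout line and give no allele, strain, age, sex or diet; they name no treatment. They also do not state that the samples are different animals, so the p-values reflect only how these samples vary, which may be technical.

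Splicing removes introns from pre-mRNA on the spliceosome, which assembles from small nuclear ribonucleoprotein particles (snRNPs) built on Sm protein rings. U2AF marks the 3' splice site, and the SF3A and SF3B complexes of the U2 snRNP then bind the branch point. Prp factors of the tri-snRNP and the Prp19 complex bring the machine to its active form. SR proteins mostly bind exons and favour their inclusion, while hnRNP proteins often oppose it, and several Rbm proteins are components or regulators of the same machine. An expression array of this kind measures the amount of each transcript and not which exons are joined.

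Few splicing factor transcripts differed between the genotypes, and the 2 that passed the test encode subunits of one complex. Sf3b5 rose 1.63-fold and Sf3b1 fell 1.44-fold on 1 of its 3 probe sets. The test was limma's moderated one on log2(signal + 16), two-sided; p-values were adjusted by Benjamini-Hochberg over the whole table of 10620 tested probe sets, and an adjusted p under 0.05 was called. All log2 differences here are knockout minus wild type on that scale, and all standard errors (SE) are the moderated ones. Thus 1 of 154 splicing factor probe sets was called higher (0.649%) and 1 lower (0.649%), against 2.05% of all tested probe sets called higher and 2.09% called lower.

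Below the threshold, most splicing factor transcripts lay slightly under their wild-type level. The log2 difference was below 0 in 50 of 73 genes (68.5%), each read by its brightest tested probe set, against 43.6% of all 6604 tested genes. The median was -0.11, against 0.04 for all tested genes. At an unadjusted p under 0.05, 17 of 154 splicing factor probe sets lay lower (11.04%) and 3 higher (1.95%; Sf3b5, U2af1l4 and Prpf4b). The shares of all tested probe sets were 8.2% and 9.69%, so the lower share was only slightly above that of all tested probe sets. Of the 17, 8 were SR protein probe sets (28.6% of that class), and in the other classes the lower share was 0% to 9.09%. The 3 knockout signals all lay under the 3 wild-type signals in 29 of the 154 (18.8%) and all above them in 5 (3.25%), against 10.4% and 13.2% of all tested probe sets. Probe sets of the same gene share the samples and may read the same transcripts, so these are not independent counts. The 29 belonged to 21 genes and the 5 to Sf3b5, U2af1l4, Hnrnpc, Prpf4b and Sf3b2. In whole liver, fewer cells of a type and less RNA per cell cannot be told apart.

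**Figure D1:**
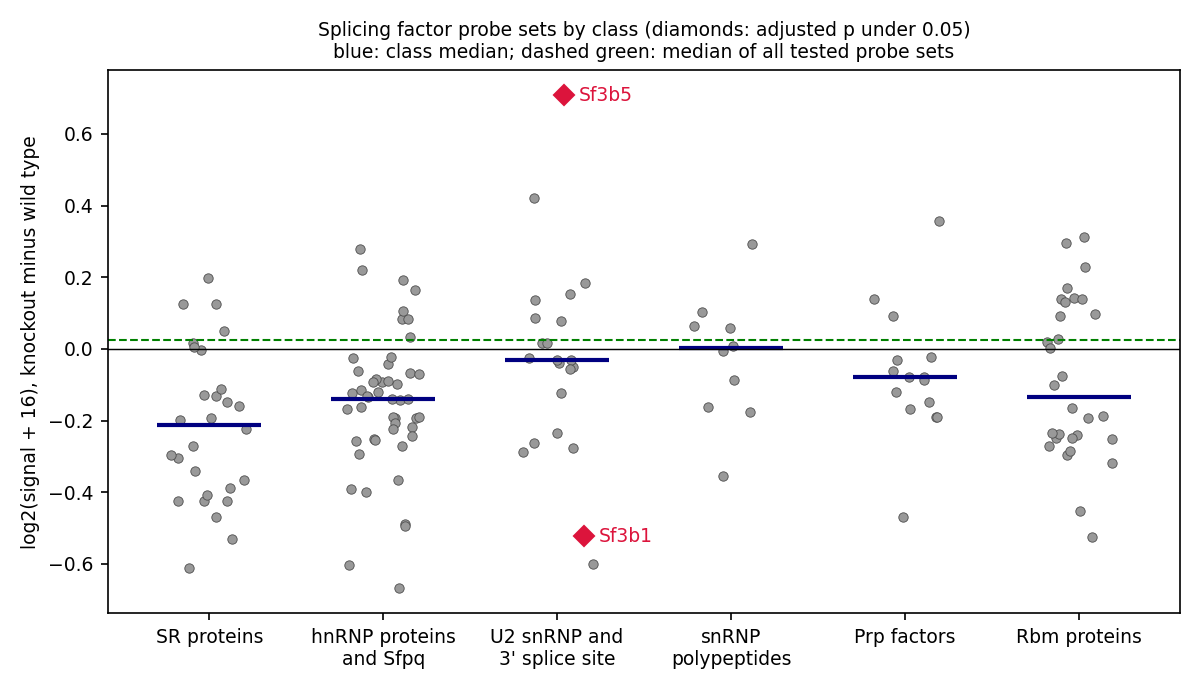
Log2 difference of log2(signal + 16), knockout minus wild type, for each of the 154 tested splicing factor probe sets (points), by class, with the class median (blue bar), the median of all tested probe sets (dashed line, 0.03) and the called probe sets (red diamonds). SR, hnRNP and Prp factor probe sets lie mostly under 0 (78.6%, 83.7% and 80%, against 45.4% of all tested probe sets). The called probe sets of Sf3b5 (0.71) and Sf3b1 (-0.52) lie in one class.

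The small downward lean was uneven over the arrays. Relative to the wild-type mean of each gene, the median over the 73 genes was -0.16 in KO903, -0.07 in KO904 and -0.04 in KO905 on the log2 scale. It was 0.02 in WT4, -0.03 in WT5 and 0.03 in WT6. KO903 thus lay lowest, and KO905 next to WT5. Without KO903 the median log2 difference over the genes was -0.07, and without each other array in turn it lay between -0.13 and -0.11. Over all 6604 tested genes the same measure lay between -0.01 and 0.06 on every array. The share of the 73 genes below 0 was lowest without WT6 (61.6%), followed by KO903 (63.0%). It was highest without KO905 or WT5 (69.9% each). With the mean over probe sets it was 75.3%.

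**Figure D2:**
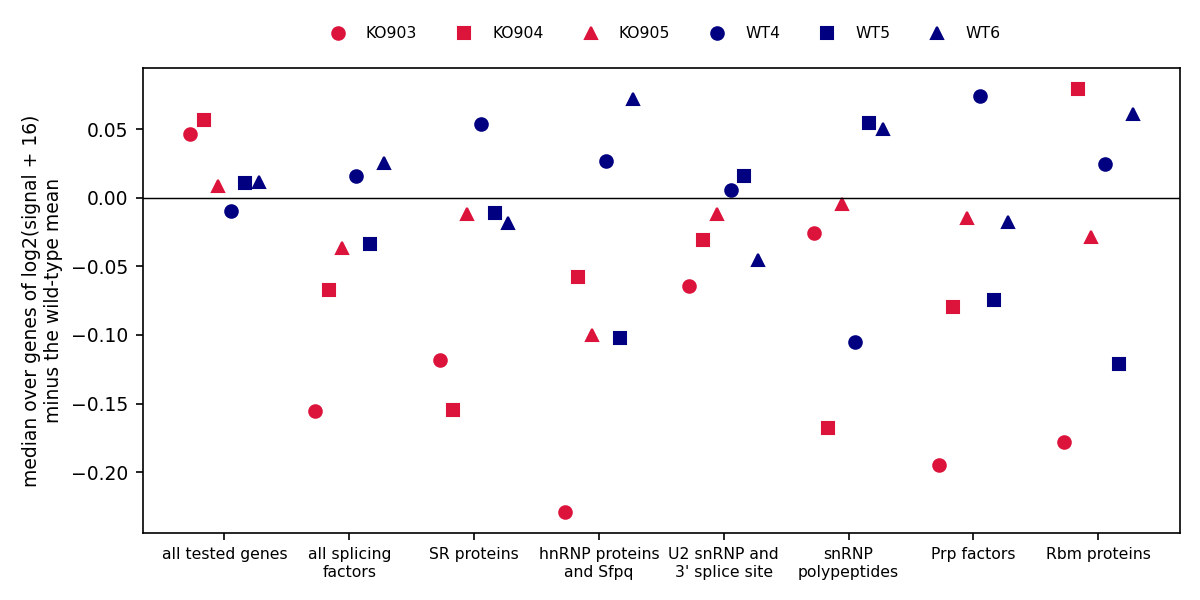
Median over the genes of each class of log2(signal + 16) minus the gene's wild-type mean, for each array (red, knockout; blue, wild type). KO903 has the lowest value for all splicing factors (-0.16), for the hnRNP class (-0.23), for the Prp factors (-0.19) and for the Rbm proteins (-0.18), while WT5 lies among the knockout arrays in the hnRNP, Prp and Rbm classes.

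No promoter sequence was available here for the called Sf3b5. Promoter sequences are shown for the other called gene, Sf3b1, and for Srsf1, Tra2b and Sfpq, whose lower readings recurred over several probe sets. They are the 250 bases before the annotated start, from RefSeq on GRCm38.p6, in lower case with matches to the GC box (GGGCGG) and the CCAAT box (CCAAT) of either strand in capitals.
Sf3b1, chr1:55027479-55027728, minus strand: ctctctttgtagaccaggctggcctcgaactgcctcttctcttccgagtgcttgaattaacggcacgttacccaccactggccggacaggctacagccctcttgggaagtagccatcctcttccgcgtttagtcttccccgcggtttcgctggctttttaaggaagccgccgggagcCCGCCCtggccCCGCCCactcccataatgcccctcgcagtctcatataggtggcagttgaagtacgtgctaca
Srsf1, chr11:88047123-88047372, plus strand: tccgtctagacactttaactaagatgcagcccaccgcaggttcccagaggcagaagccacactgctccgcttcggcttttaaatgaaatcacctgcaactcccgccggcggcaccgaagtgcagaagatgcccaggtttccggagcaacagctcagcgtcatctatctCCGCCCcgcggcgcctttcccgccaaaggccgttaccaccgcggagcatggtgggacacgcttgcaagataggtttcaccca
Tra2b, chr16:22266006-22266255, minus strand: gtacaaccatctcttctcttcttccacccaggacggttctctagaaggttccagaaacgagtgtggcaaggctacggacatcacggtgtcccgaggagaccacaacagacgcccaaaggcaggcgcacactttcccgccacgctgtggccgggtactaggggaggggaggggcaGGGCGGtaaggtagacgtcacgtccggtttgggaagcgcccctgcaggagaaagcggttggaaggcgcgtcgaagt
Sfpq, chr4:127021051-127021300, plus strand: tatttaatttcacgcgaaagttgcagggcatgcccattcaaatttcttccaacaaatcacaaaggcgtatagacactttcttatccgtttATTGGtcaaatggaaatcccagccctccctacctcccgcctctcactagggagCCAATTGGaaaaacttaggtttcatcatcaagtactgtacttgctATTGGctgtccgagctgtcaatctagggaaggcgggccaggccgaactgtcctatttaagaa

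Sf3b1 has 2 GC boxes, Srsf1 and Tra2b 1 each, and Sfpq 4 CCAAT boxes, of which 2 overlap on opposite strands. Over the same window, 84 promoters of 66 of the 74 splicing factor genes were matched by gene identifier. A GC box was found in 59.5% of these, in 57.3% of 7041 promoters of tested genes and in 32.7% of all 32851 promoters of the table; for a CCAAT box the shares were 47.6%, 35.0% and 33.8%. The core of the metal response element, searched as TGCACNC and TGCGCNC on both strands, was found in 45.2% of splicing factor promoters, 29.0% of promoters of tested genes and 21.4% of all, and in 0 of the 4 shown. The ETS site CCGGAAG was found in 26.2%, 13.6% and 6.91%, and the TATA box TATAAA in 5.95%, 6.83% and 12.4%. Splicing factor promoters held a median of 19 CG dinucleotides, promoters of tested genes 16 and all promoters 6, and the GC box, the ETS site and TGCGCNC themselves contain CG. A match describes letters and is not a bound site.

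In the U2 particle, Sf3b5, a small subunit of SF3B, had signals of 376.4 in KO903, 349 in KO904 and 428.7 in KO905, against 196.7 in WT4, 273.8 in WT5 and 220.8 in WT6. Every knockout array was higher than every wild-type array. The means were 385 ± 40.5 and 230.4 ± 39.4 (SD, n = 3 each), a log2 difference of 0.71 ± 0.16 (SE; limma adjusted p = 0.0317). Sf3b1, the largest SF3B subunit and the one that contacts the branch point, was read by 3 probe sets that the platform annotation ties to a single sequence record. The called one, second in brightness, read 864.6, 864.5 and 894.9 in the knockout and 1332.4, 1058.9 and 1424.5 in wild type, in the order of the array names. Its knockout values lay close together and under all wild-type values, with means of 875 ± 17.5 and 1272 ± 190 (SD, n = 3 each; log2 -0.52 ± 0.13 SE, limma adjusted p = 0.0495). The brightest Sf3b1 probe set, on which the groups overlapped, had a log2 difference of -0.23 ± 0.12 (SE; limma adjusted p = 0.337) and the dimmest one -0.60 ± 0.23 (limma adjusted p = 0.191), so all of them lay below 0 and 1 passed. Both calls ended when KO903, KO904, KO905, WT4 or WT6 was left out, with adjusted p up to 0.109 for Sf3b5 and 0.151 for Sf3b1. That of Sf3b1 also ended with a pseudocount of 1, where the adjusted p passed just over the threshold, and without an intensity trend (limma adjusted p = 0.0827).

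The other SF3A and SF3B subunits were not called. Sf3a1 read 266, 276.5 and 235.6 in the knockout and 315.4, 289.4 and 338.4 in wild type (log2 -0.26 ± 0.14 SE, limma adjusted p = 0.352), without overlap. Sf3b3 read 294.3, 423.3 and 433.5 against 467.1, 469.1 and 460.7, without overlap, and had a log2 difference of -0.29 ± 0.16 (SE; limma adjusted p = 0.375), or -0.12 without KO903. Sf3a2, Sf3a3, Sf3b2, Sf3b4 and Sf3b6 had log2 differences between -0.05 and 0.15 on their brightest probe sets. Of the U2AF genes, U2af1 and U2af2, which encode the subunits that read the AG and the polypyrimidine tract, lay at -0.12 ± 0.12 and -0.03 ± 0.22 (SE). U2af1l4, which encodes a paralog of the small subunit, read 323.6, 358.6 and 279.3 in the knockout and 251.2, 237.9 and 214.5 in wild type. Its groups did not overlap, and the log2 difference of 0.42 ± 0.15 (SE) did not pass (limma adjusted p = 0.147). The class median over 12 genes was -0.03, and 0.0071 without WT5.

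**Figure D3:**
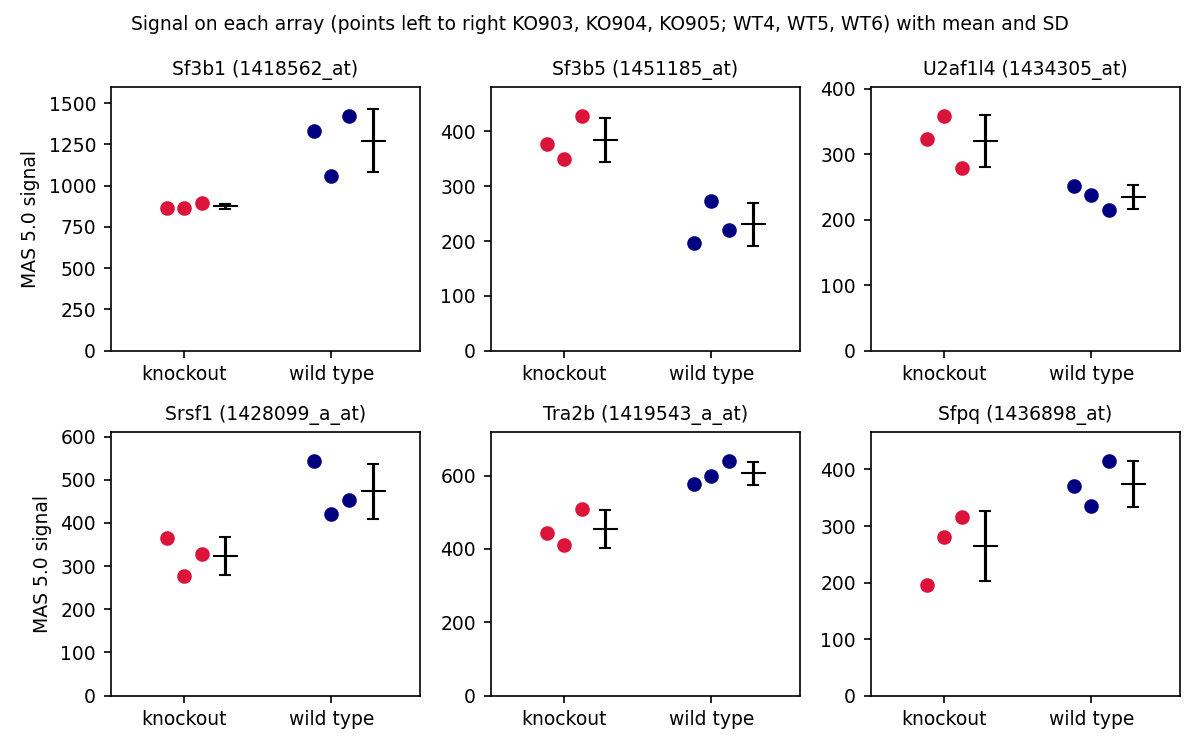
MAS 5.0 signal on each array (points, linear axis from 0) for 6 splicing factor genes, each read by the probe set in the panel title, with the group mean and SD (black). The groups do not overlap in any panel: Sf3b5 and U2af1l4 are higher in the knockout, and Sf3b1, Srsf1, Tra2b and Sfpq lower. The panels of Sf3b1 and Srsf1 do not show the brightest probe set of the gene, on which the groups overlap.

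No SR protein gene was called. At an unadjusted p under 0.05, 8 of the 28 tested probe sets of this class (28.6%) lay lower and 0 higher. The 8 came from Srsf1, Srsf2, Srsf4, Srsf6 and Tra2b. The shares of all tested probe sets were 8.2% lower and 9.69% higher. In 10 of 28 (35.7%), from 6 genes, all knockout values lay under all wild-type values, against 10.4% of all tested probe sets; none lay wholly above. The class median over 10 genes was -0.18 on the log2 scale, but -0.016 without KO904.

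Tra2b encodes a protein that binds purine-rich exonic enhancers. Its brighter probe set read 442.2, 410.5 and 509.7 in the knockout and 577.8, 599.4 and 640.4 in wild type, with no overlap (log2 -0.41 ± 0.13 SE, limma adjusted p = 0.112). Its second probe set gave nearly the same difference (log2 -0.39 ± 0.13 SE, limma adjusted p = 0.141). Srsf1, the founding SR protein, has 6 tested probe sets, and it and Srsf2 are described here after their values were seen. All 6 lay below 0, from -0.61 to -0.13, and 2 had an unadjusted p under 0.05. The dimmer of these read 364.9, 276.4 and 327.9 against 544.3, 421.1 and 454.4 (log2 -0.53 ± 0.15 SE, limma adjusted p = 0.0795). The knockout values again lay under the wild-type values, while on the brightest Srsf1 probe set the groups overlapped (log2 -0.31 ± 0.15 SE, limma adjusted p = 0.310). Srsf2, also known as SC35, was below 0 on all 4 tested probe sets, from -0.47 to -0.13.

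Srsf4 read 502.9, 615.8 and 560.4 in the knockout and 753.8, 684.1 and 632.1 in wild type (log2 -0.30 ± 0.13 SE, limma adjusted p = 0.263), without overlap. Srsf5 read 2854.7, 3342 and 2788.1 against 3435.4, 3688.4 and 3356.5, a log2 difference of -0.22 ± 0.11 (SE; limma adjusted p = 0.302). In both genes the lowest wild-type value lay just above the highest knockout value. The others, Srsf3, Srsf9, Srsf10 and Srsf11, had log2 differences between -0.27 and 0.20 on their brightest probe sets.

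Among the hnRNP proteins and Sfpq no gene was called, and 16 of 19 lay below 0, with a class median of -0.16. In this class 4 of 49 tested probe sets (8.16%, near the 8.2% of all tested probe sets) lay lower at an unadjusted p under 0.05, from Sfpq, Hnrnpa1 and Hnrnpul2 (the last named after its values were seen: log2 -0.49 ± 0.19 SE, groups overlapping). Sfpq encodes a partner of Nono that takes part in transcription, splicing and paraspeckles. Its brightest probe set read 196.4, 280.9 and 315.8 in the knockout and 371.1, 335 and 415.5 in wild type (log2 -0.50 ± 0.18 SE, limma adjusted p = 0.166), or -0.31 without KO903. The knockout arrays lay lower here, on a second probe set (log2 -0.60 ± 0.18 SE, limma adjusted p = 0.0973) and on another (-0.39), while the remaining one gave -0.09 with overlapping groups.

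Hnrnpa1, a classical exon silencer, was read by 2 tested probe sets. The dimmer one read 260.6, 164.4 and 240.8 in the knockout and 346.4, 298.2 and 435.8 in wild type (log2 -0.67 ± 0.19 SE, limma adjusted p = 0.0842). The brighter one, whose name ends in _x_at, which marks probes that may bind unrelated transcripts, gave -0.17 ± 0.17 (SE), and 0.01 without WT6. Hnrnpc, which binds uridine tracts, lay on the other side, with 1597.5, 1529.1 and 1552.4 in the knockout against 1396.1, 1278.4 and 1335.6 in wild type. Its groups did not overlap, with a log2 difference of 0.22 ± 0.10 (SE; limma adjusted p = 0.295). Hnrnpab read 2388.9, 3093.8 and 2762.6 against 2747, 3188.1 and 2956.4, which overlap (log2 -0.11 ± 0.12 SE, and -0.017 without KO903). The 4 probe sets of Hnrnpk, a poly(C)-binding protein, lay between -0.40 and -0.08, and the 5 of Hnrnpu between -0.22 and -0.06.

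The snRNP polypeptides were not called in either direction. Their class median over 7 genes was -0.01, and above 0 without KO903 or WT6, with array weights, with the mean over probe sets and without _s_at and _x_at probe sets, and 5 of 10 tested probe sets lay on each side of 0. Snrpe, an Sm ring protein, read 1055.1, 1001.2 and 1218.9 in the knockout and 1131.8, 1265.9 and 1261.9 in wild type (log2 -0.16 ± 0.12 SE, limma adjusted p = 0.534), or -0.10 without KO904. Snrpg, another ring protein, lay at -0.18 ± 0.12 (SE; limma adjusted p = 0.484) on its brightest probe set. The U2-specific Snrpb2 had probe sets at -0.09 and 0.29. No member of this class had an unadjusted p under 0.05.

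Of the Prp factors, Prpf8, the scaffold of the catalytic core, read 893.9, 1140.4 and 1161.4 in the knockout and 1154.8, 1146.1 and 1220 in wild type, which overlap (log2 -0.15 ± 0.13 SE, limma adjusted p = 0.606), or -0.027 without KO903. Prpf19, the ubiquitin ligase of the Prp19 complex, lay at -0.12, -0.19 and -0.03 on its 3 probe sets. Prpf31 was not tested, with signals of 42.6 to 74.3 in the knockout and 51.6 to 70.4 in wild type. In this class 12 of 15 tested probe sets (80%) lay below 0, against 45.4% of all tested probe sets. The class median over 7 tested genes was -0.09, or -0.031 without KO903 and -0.15 without WT4.

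Among the Rbm proteins 10 of 18 lay below 0, with a class median of -0.14, or -0.024 without KO903, -0.055 without KO905 and -0.090 without WT6. Only Rbm39, a U2AF-related coactivator and splicing regulator, had probe sets with an unadjusted p under 0.05 in this class. Its brightest probe set read 519.7, 424.4 and 444.7 in the knockout and 589.1, 586.6 and 747.2 in wild type (log2 -0.45 ± 0.14 SE, limma adjusted p = 0.111). A probe set from the same sequence record, named _x_at, read 180.9, 196.8 and 219.6 against 298.4, 286.5 and 293.2. This was the tightest separation of the gene (log2 -0.52 ± 0.14 SE, limma adjusted p = 0.0604). On the next brightest Rbm39 probe set the groups overlapped (log2 -0.17 ± 0.15 SE, limma adjusted p = 0.621). Rbm7, of a nuclear exosome targeting complex, read 860.8 to 949 in the knockout and 724.3 to 1032.8 in wild type, with a log2 difference of 0.00 ± 0.14 (SE) that was below 0 with array centring, with array weights and without KO905 or WT5. The exon junction protein gene Rbm8a lay at -0.25 ± 0.21 (SE).

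Of 73 tested genes, 41 had more than 1 tested probe set: 15 had all of them below 0, 6 all above 0 and 20 on both sides. A gene was taken to disagree where its probe sets lay on both sides of 0 with at least 1 unadjusted p under 0.05, or where they were at least 0.5 apart on the log2 scale, which held for 7 genes. Rbm39 was the widest, from -0.52 to 0.30, with 1 of 5 probe sets above 0; that one read 232.7, 220.9 and 177.7 against 229.2, 217.5 and 91.6, so its wild-type mean rests on a low WT6. Hnrnpll, a regulator of splicing in lymphocytes, lay at 0.28 ± 0.15 (SE), or 0.18 without WT5, on the brighter probe set and -0.29 ± 0.13 (SE) on the other. Prpf38b lay at 0.09 ± 0.15 (SE), or -0.011 without WT5, and at -0.47 ± 0.19 (SE) on its dimmer probe set. Prpf4b, a nuclear kinase, had 4 probe sets between -0.19 and -0.02 and 1 at 0.36 ± 0.14 (SE), where 223.7, 255.5 and 269.6 in the knockout lay above 202, 183.9 and 187 in wild type. Srsf6 lay at 0.01 ± 0.23 (SE) on its brightest probe set, below 0 with array centring, with array weights and without KO903 or WT5, and at -0.34 ± 0.12 (SE) on another of the same record. Hnrnpa1 and Sfpq, above, differed in size and not in sign. None of these differences passed the test on any probe set.

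**Figure D4:**
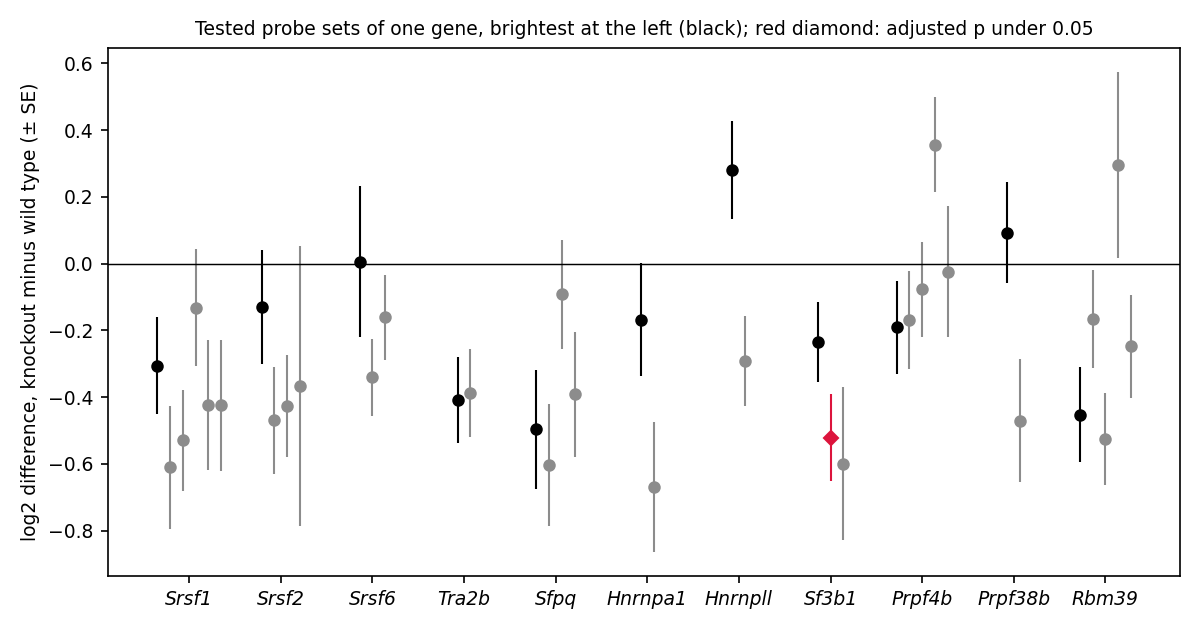
Log2 difference (knockout minus wild type, ± SE) of every tested probe set of 11 splicing factor genes, ordered within a gene from the brightest (black) to the dimmest. Srsf1, Srsf2, Tra2b, Sfpq, Hnrnpa1 and Sf3b1 lie wholly below 0, and Srsf6, Hnrnpll, Prpf4b, Prpf38b and Rbm39 have points on both sides.

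The kind of probe set is marked by the end of its name. Names ending in _x_at lay below 0 in 16 of 18 member cases (88.9%) and in 51.7% of all such tested probe sets; names ending in plain _at did so in 59 of 83 (71.1%) and in 45.0%. A further 16 probe sets carry several gene symbols, at least 1 of them fitting the name rule, and were kept out; 14 were tested, 7 lay below 0 and 1 was called lower (log2 -0.74 ± 0.18 SE, limma adjusted p = 0.0470), against 2.09% of all tested probe sets.

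Other genes of the pathway, outside the name rule, were described from a list of 119 splicing genes, of which 83 were tested on 149 probe sets. Of these probe sets, 2 were called higher (1.34%) and 2 lower (1.34%), against 2.05% and 2.09% of all tested probe sets. On the brightest probe sets, 48 of 83 genes lay below 0 (57.8%, against 43.6% of all tested genes), with a median of -0.06. Of the 4 calls, 3 were LSm genes, whose proteins form the rings that bind U6 RNA or act in mRNA decay. Lsm2 went from 226 ± 41.8 to 394.5 ± 62.7 (SD, n = 3 each; log2 0.76 ± 0.17 SE, limma adjusted p = 0.0329). Lsm3 went from 374 ± 40.5 to 601 ± 80.4 (SD, n = 3 each; log2 0.66 ± 0.14 SE, limma adjusted p = 0.0302). Lsm8, the subunit specific to the nuclear ring, fell from 445 ± 49.7 to 258 ± 40.8 (SD, n = 3 each; log2 -0.76 ± 0.15 SE, limma adjusted p = 0.0214). Ddx5, an RNA helicase with roles in splicing and transcription, fell on 1 of 6 tested probe sets, named _x_at, from 369 ± 49.5 to 225 ± 24.2 (SD, n = 3 each; log2 -0.67 ± 0.15 SE, limma adjusted p = 0.0338). Its brightest probe set gave -0.13 ± 0.16 (SE; limma adjusted p = 0.727), with overlapping groups.

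By sub-list, the median over genes was 0.09 for the snRNP and LSm genes (9 tested, 4 of them below 0). It was -0.08 for the spliceosome core and helicases (32 tested) and -0.26 for the exon junction genes (3). The other regulators, Ddx5 included (29), had -0.07, the SR kinases (6) 0.11 and snRNP assembly (4) -0.12. The call of Lsm2 ended without KO903, KO904, KO905, WT5 or WT6 (adjusted p up to 0.113), that of Lsm3 without KO903, KO904, WT4 or WT6 (up to 0.121), and that of Lsm8 without KO903, KO904 or WT6 (up to 0.0865). That of Ddx5 ended without any 1 array except WT5 (up to 0.126).

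Median signals were 330.8 to 342.8 on the 6 arrays. The ratio of 3' to 5' actin signal, a measure of RNA integrity, was 1.17 to 1.22 in the knockout and 1.10 to 1.47 in wild type. For Gapdh it was 0.82 to 0.89 in the knockout and 0.86 to 0.99 in wild type. Array WT6 had the highest ratio for both genes. The single Atp7b probe set averaged 267 ± 30.1 in wild type and 219 ± 29.9 in the knockout (SD, n = 3 each; limma adjusted p = 0.407). Whether this probe set lies within the altered region is not given here, so it checks nothing about the labels. Of the hepatocyte markers 7 of 8 were tested with 0 called, and their summed signal was 112550 to 127600 in the knockout and 117306 to 141975 in wild type. The summed signal of 8 of 10 Kupffer cell and macrophage markers was 5634 to 7592 against 4172 to 5756, and that of 7 of 8 endothelial markers 2946 to 3632 against 2446 to 2834, again with 0 called. Of the 8 stellate markers 4 were tested and 1 was called higher, while 2.05% of all tested probe sets were called higher. The summed signal of 6 stellate markers, including Col1a1 and Lrat, which were too dim to test, was 4857 to 5865 against 4102 to 5315. Of the 10 lymphocyte and the 8 cycling-cell markers 2 each were tested with 0 called (312 to 332 against 233 to 295, and 747 to 1228 against 751 to 899). The 7 biliary and 5 neutrophil markers had no single-symbol probe set among those listed, so these cells could not be assessed. The endothelial and the lymphocyte ranges, the latter of only 2 markers, did not overlap between the genotypes. Among all tested probe sets, 13.2% lay wholly higher in the knockout. None of the measured markers was at 0. The part of these cells in the splicing factor values was not tested.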

How the data were processed

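Per the labels, the deposited intensity values are MAS 5.0 signals on a linear scale, made by the authors with 1 scaling factor per array to a target of 350; how the listed probe sets were chosen, and the detection calls, are not given in the sources used here. Array number, not depth, limits the precision. The 33 control probe sets and probe sets with a mean signal under 100 were left out. Values were tested as log2(signal + 16) in limma (lmFit, eBayes with an intensity trend), knockout against wild type, two-sided, with Benjamini-Hochberg adjustment over 10620 probe sets. Fold changes on this scale understate changes of low signals. Sample numbers do not match between the groups, so nothing was paired; no exact permutation test of 3 against 3 can go below 0.1. At most 0.0849% of values were identical between any pair of arrays.

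Symbols came from the platform annotation; all 168 member probe sets were found by gene identifier in RefSeq (GRCm38.p6), and 0 symbols changed. The brightest tested probe set stood for a gene. Members and lists were chosen with earlier results of these data known. Named were genes with a called probe set; per class the smallest p and the brightest gene; genes whose probe sets disagree; and up to 6 largest rises and 6 largest falls without overlap, plus called genes of the pathway list. Other genes were added as examples of their class after their values were seen. Medians of classes carry no test. Protein sequences were not used here. The fit was tested on simulated data. Alternatives were quantile normalization, array median centring, pseudocounts of 1 and 64, no filter, a minimum mean signal of 200, eBayes without trend or robust, array weights, a threshold of 0.10, the mean over probe sets, leaving out each array and, chosen after seeing the data, leaving out probe sets named _s_at or _x_at. Versions were R 4.3.3, limma 3.58.1, Python 3.11.15 and matplotlib 3.10.9.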

Additional observations from a re-analysis of the deposited data

How the results depend on the processing

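The median over splicing factor genes stayed below 0 under every alternative run, from -0.14 with array centring to -0.07 without KO903. Array centring also lowered the median over all tested probe sets, from 0.025 to -0.002. The number of splicing factor probe sets called lower was 2 with quantile normalization, 0 with a pseudocount of 1, 0 without the intensity trend and 6 at a threshold of 0.10, where all calls numbered 786. Leaving out 1 array gave 0 to 1 called higher, 0 to 2 called lower and 175 to 469 calls among all probe sets. It moved the class median of the SR proteins from -0.24 to -0.016, of the U2 and 3' splice site factors from -0.093 to 0.0071, of the snRNP polypeptides from -0.097 to 0.035 and of the Rbm proteins from -0.14 to -0.024; for the Prp factors it ranged from -0.15 to -0.031. Without _s_at and _x_at probe sets the SR median was -0.25. Of 375 values of 25 named genes under alternatives, 346 kept their side of the threshold or had none to lose, 29 lost a call and 0 of the called values changed sign; the sign differed in 10 values of 4 uncalled genes (Hnrnpa1, Prpf38b, Rbm7 and Srsf6). With 3 arrays a group, the smallest difference called among all probe sets was 0.36 on the log2 scale. No single probe set with a difference the size of the class medians was thus called. The smallest difference that could be detected was not examined.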
